A study of Oryzias latipes with 7 samples.

Results

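The transition from 23 h to 14 h before spawning was examined in ovarian follicles of medaka (Oryzias latipes), by setting the 14 h array beside the 23 h array, 2 of the 7 arrays of the study. Of 47773 probe sets retained by a filter on low values, 950 differed 4-fold or more between these arrays, and their levels were then followed to 8 h and 2 h. The study hybridised total RNA of 100 pooled follicles per stage to 1-colour (Cy3) NimbleGen arrays sampled 47, 35, 32, 23, 14, 8 and 2 h ahead of spawning, each time on 1 array. The fish shared one housing (27 °C, 14 h of light and 10 h of dark), the labels give no treatment and no age, and the largest and second-largest follicles of the ovary were taken. With 7 arrays and no replicate, every difference below is a value without a test. Pooling means that fewer cells of a type and less RNA per cell cannot be told apart, and the spread between fish was not measured.

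An ovarian follicle is an oocyte enclosed by granulosa cells, with theca cells outside them. In fish, a surge of luteinizing hormone acts on the somatic cells of the full-grown follicle, which then make a progestin that makes the oocyte resume meiosis. Ovulation follows when the follicle layer is opened by proteolysis and the egg is released. Medaka spawn each day under long days, so a follicle can be dated by hours before spawning.

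The files used here pair no identifier with a gene name, and 0 of 63698 matched the reference gene table. The label "follicle" could therefore not be checked against marker genes, and pathway membership is not given. Levels are RMA intensities as the authors deposited them, a background-corrected and normalized brightness per probe set. The times are those under which the per-array files were deposited. The deposited series table holds the same arrays but places 5 of the 7 under another time, the array filed under 23 h at 35 h and the array filed under 14 h at 32 h. The labels of the 2 h sample also give 5 h in one field. Array numbers fell into a 6-digit series (47, 23, 14 and 2 h) and an 8-digit series (35, 32 and 8 h). The median intensity over all probe sets was 698 at 23 h and 682 at 14 h, and over the other arrays it lay between 599 (8 h) and 703 (47 h).

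Between the arrays, 549 probe sets had a level at 14 h of 4-fold or more above that at 23 h (1.15% of those retained) and 401 a level of 4-fold or more below it (0.839%). These are called the 14 h-high and 14 h-low sets. Most of the array was little different, with 43785 probe sets (91.7%) within 2-fold and 3038 (6.36%) between 2-fold and 4-fold. The 4-fold limit cut through a continuous distribution, since on the log2 scale the higher probe sets nearest to it stood at 2.0001 and 1.9987 and the lower ones at -2.0006 and -1.9990. By the filed times the closest arrays were 35 h and 32 h, between which 369 probe sets (0.772%) differed 4-fold either way. From 23 h to 14 h the share was 1.99%. The 35 h and 32 h arrays are of the other array-number series, closer in time and from separate follicle pools. The series table places them at 2 h and 14 h. The pair therefore gives no measure of spread for the 23 h and 14 h arrays, and this spread was not measured. For 95% of retained probe sets the absolute log2 difference was below 1.31 from 23 h to 14 h and below 1.02 from 35 h to 32 h.

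**Figure D1:**
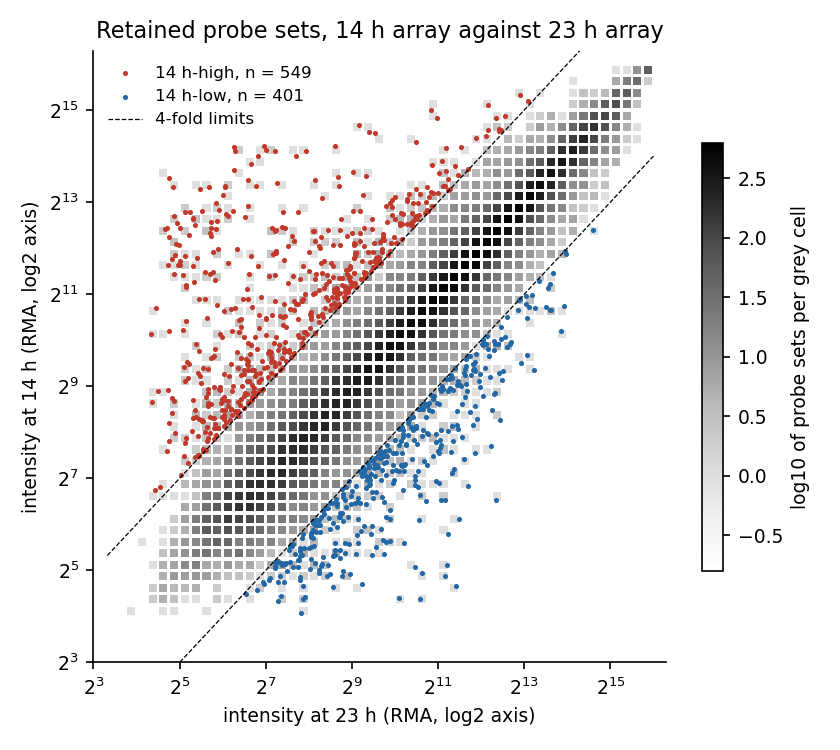
Intensity of the retained probe sets at 23 h (horizontal) and 14 h (vertical), both RMA intensities on log2 axes, with grey cells shaded by the number of probe sets, dashed lines at 4-fold and points for the 549 probe sets of the 14 h-high set (red) and the 401 of the 14 h-low set (blue). The red points extend much farther from the 4-fold line than the blue ones, with 63 red and 4 blue points at 64-fold or more. Of the 63, 33 were retained by the filter only through the 14 h array.

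The 2 directions differed in the size of the largest changes. In the 14 h-high set 231 probe sets were at least 8-fold higher, 133 at least 16-fold and 63 at least 64-fold. The corresponding counts of the 14 h-low set were 115, 32 and 4. The log2 difference in the 14 h-high set had a median of 2.75, with the middle 50% from 2.28 to 3.94 and a highest value of 8.78. For the 14 h-low set the median was -2.48, the middle 50% ran from -3.18 to -2.19, and the lowest value was -6.75. Of the 63, 33 were retained by the filter only through the 14 h array. How many of the 14 h-low set were retained through a single array was not counted. With the filter at the 50th percentile, 160 probe sets were higher and 152 lower. At a 2-fold limit the balance turned, with 1879 probe sets higher and 2109 lower, and an offset of 64 before the logarithm left 438 higher and 229 lower at 4-fold. With the times of the series table, where 23 h and 14 h are the arrays filed under 2 h and 32 h, 2005 were higher and 2364 lower.

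Changed probe sets lay mainly at low and middle levels. Where the mean of the 2 arrays was between 128 and 512, 4.06% of probe sets differed 4-fold, against 0.785% between 2048 and 8192 and 0.174% above that. The 35 h to 32 h pair gave 1.87%, 0.175% and 0.0735% in the same classes, so each class held more differences from 23 h to 14 h. At 23 h, 167 probe sets of the 14 h-high set (30.4%) lay at or below an intensity of 75.8, the value of the filter, and so did 128 of the 14 h-low set (31.9%) at 14 h. The size of a change from or to such a level is poorly determined, as the files give no detection limit. The filter itself left out 188 probe sets that were 4-fold higher at 14 h and 63 that were 4-fold lower.

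The median of the 14 h-high set was low on every array before 14 h. From 47 h to 23 h its median intensity was 115, 193, 202 and 151 in time order, and on the arrays from 14 h onward 2207, 774 and 292. The median was thus highest at 14 h, intermediate at 8 h and closer to the earlier levels at 2 h. Members were chosen for a 14 h level above that at 23 h, which favours a median that is highest at 14 h. For all retained probe sets the median stayed between 1473 and 1669 over the 7 arrays.

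The 14 h-low set had median intensities of 1021, 718, 762 and 1012 from 47 h to 23 h, in time order, and of 147, 226 and 271 from 14 h onward. Its median remained low on all 3 arrays from 14 h onward. Here too the choice of members favours the lowest median at 14 h. The individual courses varied widely, with the middle 50% of the set spanning 57.8 to 381 at 14 h and 91.6 to 1189 at 2 h.

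**Figure D2:**
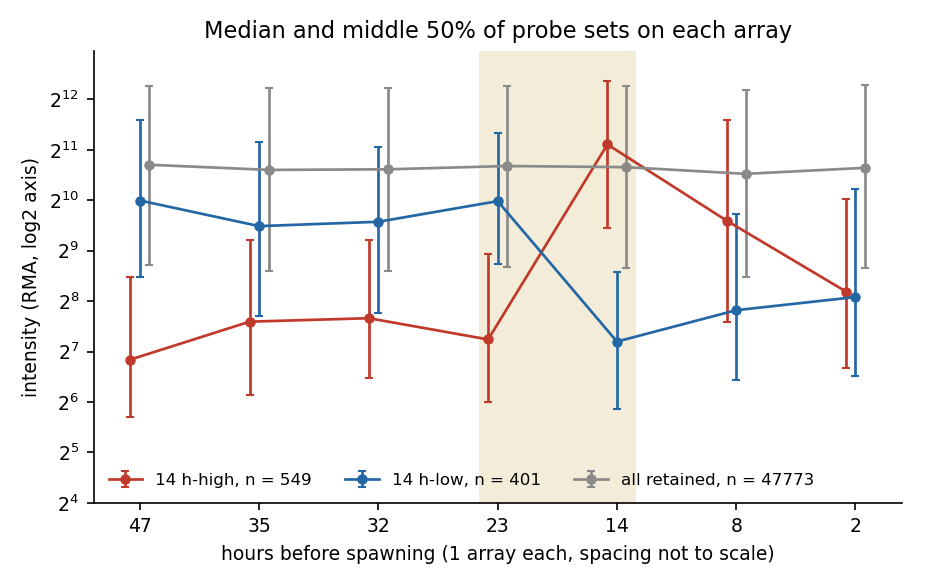
Median RMA intensity (points, log2 axis) and middle 50% of probe sets (bars) on each of the 7 arrays for the 14 h-high set, the 14 h-low set and all 47773 retained probe sets, with the compared pair shaded. The 14 h-high median stands at 2207 at 14 h and at 292 by 2 h, while the 14 h-low median stays between 147 and 271 from 14 h onward.

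Levels before 23 h separated new levels from returns to an earlier one. In 331 probe sets of the 14 h-high set (60.3%) the 14 h array was at least 4-fold above all 4 earlier arrays. Their median intensity from 47 h to 23 h was 86.8, 100, 125 and 200 in time order, and from 14 h onward 3420, 957 and 257. Another 71 (12.9%) stood at 14 h within 2-fold of their mean log2 level over 47, 35 and 32 h. For these 71 the limits place 23 h more than 2-fold below that mean by definition. Their median was 129 at 23 h, against 335, 886 and 727 on the 3 arrays before it and 779 on the 14 h array. The remaining 147 had neither pattern, and in 4 of them the 14 h level was still below the 47 to 32 h mean. A level 4-fold beyond all 4 earlier arrays also meets the limit against 23 h, so in either direction only members can show it. How many of all retained probe sets stood within 2-fold of their 47 to 32 h mean at 14 h was not counted.

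Of the 14 h-low set, 164 probe sets (40.9%) were at least 4-fold below all 4 earlier arrays at 14 h. Their medians before 14 h were 2461, 1865, 1741 and 1199 in time order, against 138 on the 14 h array. A further 68 (17.0%) were within 2-fold of their 47 to 32 h mean at 14 h. For these the limits place 23 h more than 2-fold above that mean by definition. Their median was 1081 at 23 h, against 172 at 14 h and 162 to 340 on the earlier arrays. These 68 had a median of 137 at 8 h and 158 at 2 h. Of them, 44 stood 4-fold or more below 23 h at both 8 h and 2 h, which a 23 h level high by definition favours.

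The changed probe sets were next followed to 8 h and 2 h, each set against its own 23 h level. These states share the 23 h array with the comparison that chose the members and are given as a description. In the 14 h-high set 257 of 549 (46.8%) were still 4-fold or more above 23 h at 8 h, where 3.72% of all retained probe sets were that far above. At 2 h the number was 152 (27.7%, against 4.41% of all retained). Within 2-fold of the 23 h level were 149 (27.1%, against 71% of all retained) at 8 h and 209 (38.1%, against 73.1%) at 2 h. At 2 h, 80 probe sets (14.6%) lay 2-fold or more below their 23 h level, a share near the 14.9% of all retained.

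In the 14 h-low set 185 of 401 (46.1%) were still 4-fold or more below 23 h at 8 h, against 4% of all retained, and 198 (49.4%) at 2 h, against 4.91%. Within 2-fold of 23 h were 91 (22.7%, against 71% of all retained) at 8 h and 89 (22.2%, against 73.1%) at 2 h. Before centring, the share still 4-fold away was thus close to the same at both later times in the 14 h-low set. In the 14 h-high set it was lower at 2 h than at 8 h. Whether the sets differ in this was not tested. The 8 h array belongs to the 8-digit series, and its median over all probe sets was 0.22 below that of the 23 h array on the log2 scale. After centring each array on its median, 282 of the 14 h-high set stood 4-fold above and 152 of the 14 h-low set 4-fold below at 8 h, with 152 and 196 at 2 h. The 14 h-low count was then lower at 8 h than at 2 h.

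**Figure D3:**
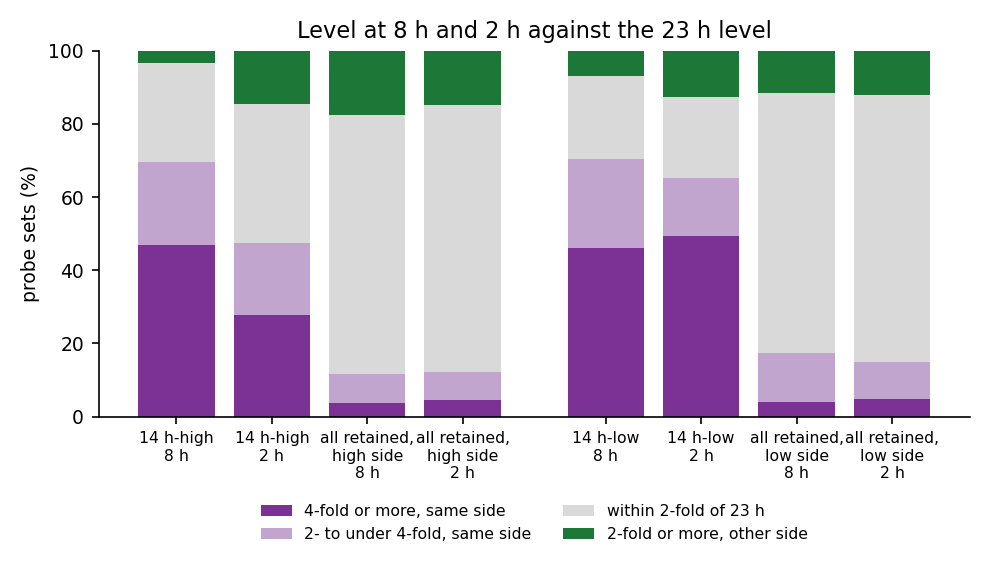
Share of probe sets (%) by their level at 8 h and 2 h relative to 23 h, in the 14 h-high set, the 14 h-low set and all retained probe sets counted on the matching side, with colours for 4-fold or more on the same side, 2-fold to under 4-fold, within 2-fold and 2-fold or more on the other side. The dark purple share is 46.8% and 27.7% in the 14 h-high set and 46.1% and 49.4% in the 14 h-low set at 8 h and 2 h.

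Several courses followed from the states at both later times. A lasting course, 4-fold away from 23 h at 8 h and at 2 h, was seen in 113 probe sets of the 14 h-high set (20.6%, against 1.44% of all retained). From 23 h to 2 h their median intensity was 129, 1773, 2614 and 1668 in time order. A course lasting to 8 h, 4-fold higher at 8 h and back within 2-fold at 2 h, was seen in 83 (15.1%, against 1.34% of all retained), with medians over the same arrays of 184, 2104, 2064 and 194. A returning course, back within 2-fold of 23 h at both later times, was seen in 74 (13.5%, against 58.1% of all retained). Their medians were 168, 2936, 208 and 184. At 14 h, 47 of the 74 were also 4-fold or more above all 4 earlier arrays. Over the arrays other than 14 h, 16 of the 74 (21.6%) and 3 of the 113 (2.65%) had a mean log2 at or below the filter value. A further 17 (3.10%, against 1.80% of all retained) were back at 8 h and 4-fold higher again at 2 h. The lasting course was not the more frequent one under every setting. The lasting and returning counts were 65 and 119 with an offset of 64, 114 and 176 without the filter, and 79 and 101 against the mean of the 47 to 23 h arrays.

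In the 14 h-low set the lasting course was the most frequent of these, with 130 probe sets (32.4%, against 1.76% of all retained). From 23 h to 2 h their medians were 1192, 168, 99.9 and 100 in time order. A return at both times was seen in 31 (7.73%, against 58.1% of all retained), with medians of 1139, 146, 1138 and 900. A low level at 14 h and 8 h followed by a return at 2 h was seen in 20 (4.99%, against 1.11%), and a return at 8 h with a low level again at 2 h in 27 (6.73%, against 1.47%).

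Where each member was highest or lowest is partly fixed by the choice of members on the 14 h and 23 h levels, so these counts are a description. Among the 14 h-high set the 14 h array gave the highest of the 7 levels for 315 probe sets (57.4%), the 8 h array for 123 (22.4%) and the 2 h array for 56 (10.2%). Over all retained probe sets these shares were 12.3%, 13.2% and 23.5%. The lowest level of the 14 h-low set was that of the 14 h array for 216 (53.9%), of the 8 h array for 73 (18.2%) and of the 2 h array for 89 (22.2%), where all retained probe sets gave 14.8%, 26.1% and 20.5%. Of the 14 h-high set 74 were 2-fold or more higher still at 8 h than at 14 h, and 281 were 2-fold or more lower. The shares of all retained probe sets were not counted for these 2 numbers, and members were chosen for a high 14 h level. Over all probe sets the median differed by -0.19 from 14 h to 8 h on the log2 scale. A 4-fold gap to every other array was present in 121 at 14 h alone, in 65 at 14 h and 8 h together and in 45 from 14 h onward. The corresponding numbers in the 14 h-low set were 33, 18 and 32. Of the 121, 46 (38.0%) had a mean log2 at or below the filter value over the arrays other than 14 h. These 46 were retained only through the 14 h array, so their count is partly fixed by the filter.

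The largest changes in each of these courses are given for single probe sets whose brighter array reached 1589, the median intensity of all retained values. Among the 60 of the 14 h-high set with a lasting course, OLAT0001S00032694 had the largest difference. Its intensity before 14 h was 32.0, 193, 967 and 76.6 in time order, and from 14 h onward 18789, 25077 and 1276. It was 7.94 higher at 14 h than at 23 h on the log2 scale, peaked at 8 h and at 2 h was still above every array before 14 h. Its 35 h and 32 h values already differed by 2.32 on the log2 scale.

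Among the 48 that were back at both later times, OLAT0001S00005561 had the largest difference, at 7.82. Its intensity before 14 h was 72.2, 44.1, 74.3 and 44.6 in time order, and from 14 h onward 10044, 56.2 and 66.7. The 14 h array alone was high, and the other 6 lay within 2-fold of each other.

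Among the 53 of the 14 h-low set with a lasting course, OLAT0001S00030788 differed most, by -6.75. The 4 arrays before 14 h gave intensities of 2171, 2728, 1705 and 2728 in time order, and those from 14 h onward 25.3, 155 and 29.7. The 4 earlier arrays and the 3 later ones did not overlap, which the choice of a large and lasting fall from 23 h favours. Among the 13 that were back at both later times, K_OLAT0000S00009464 differed most, by -4.21. Its intensities were 1587, 1240, 1595 and 2573 before 14 h and 139, 2613 and 1511 from 14 h onward. The 14 h array alone was low. With an offset of 64 the differences of the 4 named probe sets were smaller, at 7.07 for OLAT0001S00032694, 6.54 for OLAT0001S00005561, -4.97 for OLAT0001S00030788 and -3.70 for K_OLAT0000S00009464.

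**Figure D4:**
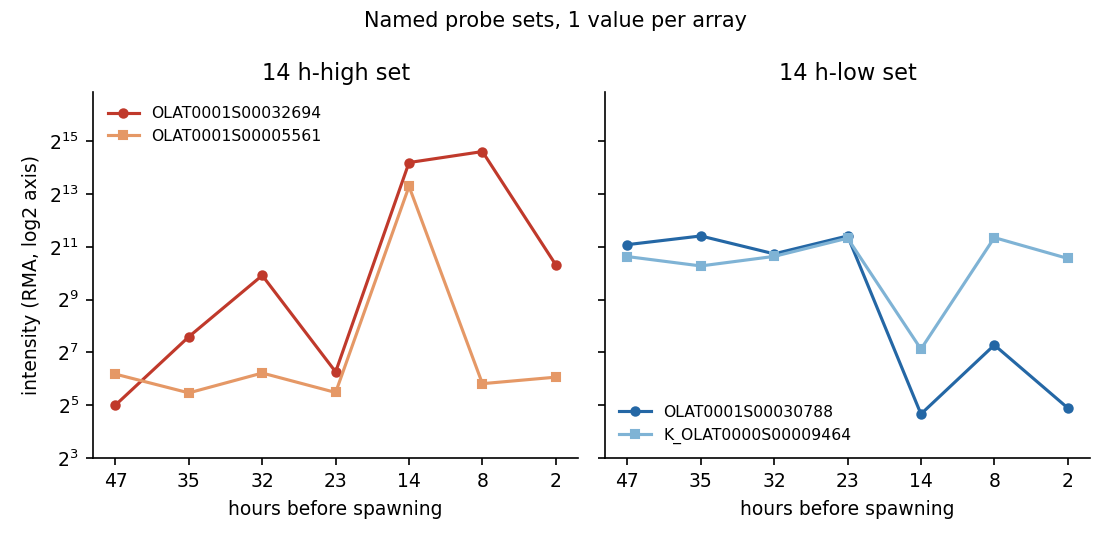
RMA intensity (log2 axis) of the 4 named probe sets on the 7 arrays, in hours before spawning, with 1 value per array and no error bar. Of the high pair, one stayed high at 8 h (25077) and the other was high at 14 h alone (10044), and of the low pair one stayed at 25.3 to 155 from 14 h onward and the other was low at 14 h alone (139).

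A view that does not use the 23 h or 14 h array was given by 2 other pairs, 8 h with 32 h and 2 h with 47 h, each within 1 array-number series. At 8 h, 200 of the 549 (36.4%) were 4-fold or more higher than at 32 h, against 3.55% of all retained probe sets, and 17 (3.10%) were 4-fold or more lower, against 3.16%. At 2 h, 170 (31.0%) were 4-fold or more higher than at 47 h, against 4.76%, and 19 (3.46%) were lower, against 4.65%. The median log2 difference of the set was 1.03 in each pair, where that of all retained probe sets was -0.14 and -0.06. Of the set, 85 (15.5%) were 4-fold higher in both pairs, against 1.5% of all retained, and 264 (48.1%) in neither. The share in neither was not counted over all retained. It must be far larger there, as only 3.55% and 4.76% of all retained were higher in the single pairs.

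The 14 h-low set lay on the other side in these pairs. At 8 h, 129 of the 401 (32.2%) were 4-fold or more lower than at 32 h, against 3.16% of all retained, and 23 (5.74%) were higher, against 3.55%. At 2 h, 168 (41.9%) were 4-fold or more lower than at 47 h, against 4.65%, and 23 (5.74%) were higher, against 4.76%. The median log2 differences were -1.05 and -1.55. In both pairs 88 (21.9%) were 4-fold lower, against 1.62% of all retained. Members also differed more often than all retained probe sets between the neighbouring 35 h and 32 h arrays, where neither was used to choose them. In this pair 20 of the 14 h-high set were 4-fold higher (3.64%, against 0.406%) and 9 lower (1.64%, against 0.366%). Of the 14 h-low set 18 were higher (4.49%) and 14 lower (3.49%).

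**Figure D5:**
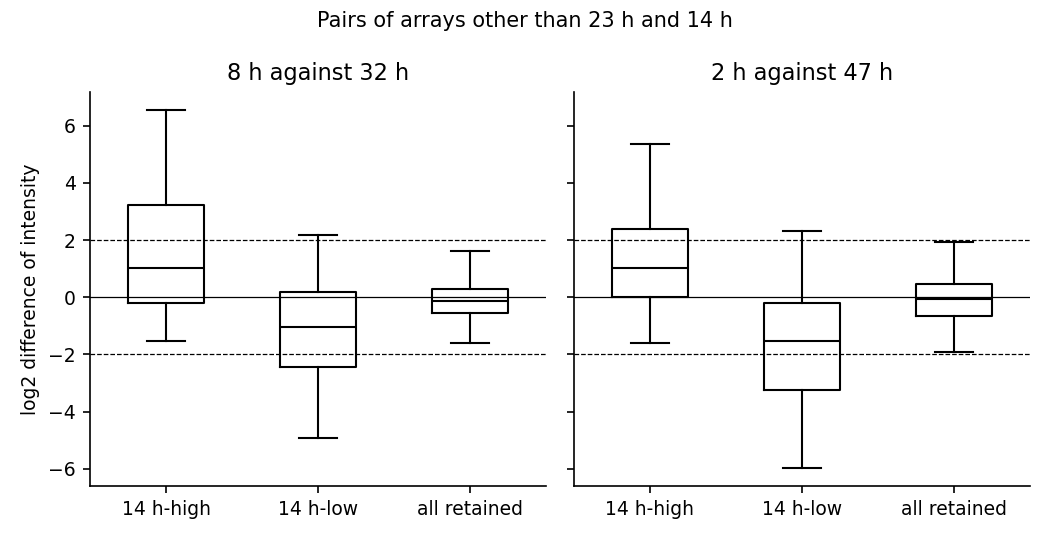
Log2 difference in intensity between 8 h and 32 h and between 2 h and 47 h in the 14 h-high set, the 14 h-low set and all retained probe sets, with the median (line), the middle 50% (box) and the 5th to 95th percentiles (whiskers), and dashed lines at 4-fold. The 14 h-high boxes lie mostly above 0 (medians of 1.03 in each pair) and the 14 h-low boxes mostly below (medians of -1.05 and -1.55).

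The largest members of the 14 h-high set were then described by size of the difference. The 63 probe sets that were at least 64-fold higher had median intensities of 43.8, 54.7, 115 and 51.7 before 14 h, in time order, and of 6442, 125 and 115 from 14 h onward. At 14 h alone 55 of the 63 were 4-fold above every other array. At 8 h, 20 (31.7%) were still 4-fold above 23 h and at 2 h 8 (12.7%). For the 98 that were 8-fold to under 16-fold higher, the numbers were 61 (62.2%) and 45 (45.9%). For the 318 under 8-fold they were 127 (39.9%) and 71 (22.3%). The 133 that were at least 16-fold higher, the 63 among them, gave 69 (51.9%) and 36 (27.1%). Among the classes counted, both shares were thus larger at 8-fold to under 16-fold than under 8-fold, and smallest at 64-fold or more. Of all retained probe sets, 3.72% at 8 h and 4.41% at 2 h were that far above 23 h. Members from 16-fold to under 64-fold were not counted as a class of their own. Their shares must exceed those of the 133, since the 63 lie below the 133 at both times. Which class had the highest shares therefore cannot be read from these counts. The filter bears on these courses. Over the other 6 arrays 33 of the 63 (52.4%) had a mean log2 at or below the filter value and were retained only through the 14 h array, as were 79 of the 549 (14.4%) and OLAT0001S00005561. A probe set retained in this way had to be high at 14 h and low in the mean of the other 6 arrays, though a single one of these could be high. Among the 4 earlier arrays, the 63 were highest at 32 h in 53 (84.1%), whereas 19.6% of all retained probe sets were. These shares are not alike, since the choice of members favours a low 23 h level. The 23 h array was highest in 3 of the 63, but in 13941 of the 47773 retained. For the 63 the median log2 difference between 32 h and 35 h was 1.23, against -0.01 in members under 16-fold and 0.00 in all retained. These size classes and the 32 h level were examined after the values were seen.

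The probe sets carried 1 of 2 kinds of identifier, whose meaning the files do not give. Identifiers beginning with K_ made up 35.5% of retained probe sets, 38.4% of the 14 h-high set and 43.9% of the 14 h-low set. Among the 63 largest members of the 14 h-high set only 5 (7.94%) began with K_, and among the 121 that stood apart at 14 h alone 19 (15.7%) did. Nearly all members had the full 6 probes, 547 of the 14 h-high (99.6%) and 399 of the 14 h-low set (99.5%), near the 99.3% of all retained. In 22 probe sets of the 14 h-high and 13 of the 14 h-low set the identifier number was next to that of another member of the same set. How many would be so in sets of this size drawn from all retained was not counted. These counts therefore cannot be called high or low, and whether such pairs share a transcript was not tested.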

How the data were processed

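The authors deposited intensities on a linear scale, computed with RMA per the submitters' processing notes. RMA usually includes background correction, between-array normalization and a summary over the probes of a probe set. Its version is not given in the sources used here. Each deposited file also lists the number of probes per probe set, another value that was used only as a count. Each array took its time from its developmental stage label.

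From these values, log2 intensities were computed, and only probe sets whose mean log2 over all 7 arrays exceeded the 25th percentile (6.24) were retained, which removed 15925 of 63698. A probe set was a member when the 14 h and 23 h arrays differed by 4-fold or more. Later levels were classed by their distance from 23 h (4-fold, 2-fold). No test was possible with 1 array per time, so precision is limited by the number of arrays. Named probe sets had the largest difference, among those whose brighter array reached the median intensity, in a course kept at 8 h and 2 h or back within 2-fold of 23 h at both, in each direction. Gene lists and markers were prepared but need gene symbols, so none was applied. Members, lists and classes were chosen with earlier results of these data known. Python 3.11.15 with pandas 2.3.3 was used, and the code for the selection was run on simulated data. The simulated noise was equal at every level and smaller than the differences between these arrays. The run therefore checks the code and not the selection in these data. Alternatives were the filter, the normalization, an offset of 64, other limits, another reference level and the times of the series table.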

Additional observations from a re-analysis of the deposited data

How the results depend on the processing

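Quantile normalization and centring on the array median left every count of members, courses and pairs within 1.5 times its main value. Quantile normalization gave 540 higher and 375 lower probe sets, and 529 and 373 of these were among the 549 and 401. Centring gave 562 and 385, with 549 and 385 shared. Against the mean of the 47 to 23 h arrays in place of 23 h, all counts of lasting and returning members also stayed within 1.5 times, but in the 14 h-high set 79 were lasting and 101 returning, against 113 and 74 in the main counts. Without the filter, 114 of the 14 h-high set were lasting and 176 back at 8 h and 2 h, and 104 of the 14 h-low set lay near their 47 to 32 h mean. Returns within 1.5-fold numbered 30 and 12.

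Other settings moved more counts, given here in the order members, lasting, back at both times, beyond all earlier arrays, near the 47 to 32 h mean, same side at 8 h against 32 h, and same side at 2 h against 47 h. With the filter at the 50th percentile the 14 h-high set gave 160, 49, 15, 87, 28, 71 and 64 and the 14 h-low set 152, 32, 17, 89, 9, 53 and 62. At a 2-fold limit they gave 1879, 534, 391, 1044, 570, 883 and 791, and 2109, 723, 435, 927, 776, 850 and 1030. At an 8-fold limit they gave 231, 37, 27, 155, 13, 76 and 55, and 115, 32, 7, 41, 14, 22 and 41. An offset of 64 before the logarithm gave 438, 65, 119, 313, 36, 154 and 101, and 229, 79, 19, 90, 52, 65 and 87. The order of lasting and returning in the 14 h-high set was thus the opposite of the main one with this offset, without the filter and with the 47 to 23 h reference. The cause was not tested.

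With the times of the series table, 23 h and 14 h are the arrays filed under 2 h and 32 h, and the counts became 2005, 429, 34, 58, 1158, 134 and 59, and 2364, 980, 13, 35, 1601, 138 and 49. The differences of the named probe sets then became -0.40 for OLAT0001S00032694, 0.16 for OLAT0001S00005561, 5.84 for OLAT0001S00030788 and 0.078 for K_OLAT0000S00009464. Which source gives the right times was not tested. No paired analysis was possible because each time has 1 array and the labels carry no replicate numbers. Leaving out a replicate was not possible for the same reason.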

Other observations

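The largest members of the 14 h-high set were unevenly spread over the identifier numbers, which was noticed after the values were seen. When both identifier kinds were divided into ranges of 2000 numbers, giving 34 ranges, one range of the kind without K_ (numbers 30000 to 31999) held 24 of the 133 probe sets that were at least 16-fold higher at 14 h (18.0%), although it held 3.24% of retained probe sets. The next highest range held 11. In the same range 41 of 1548 retained probe sets (2.65%) belonged to the 14 h-high set, where the other ranges had 0.596% to 2.30%, and 13 (0.840%) to the 14 h-low set, where all ranges had 0.180% to 1.65%. The 24 had median intensities of 42.1, 49.8, 95.1 and 42.2 before 14 h, in time order, and of 5914, 67.3 and 86.9 from 14 h onward. In 23 of them the 14 h level alone exceeded all the others 4-fold, and 15 of the 24 were retained by the filter only through the 14 h array. Over all 1548 probe sets of this range, 28 had such a gap for the 14 h array, 9 for the 2 h array, 3 for the 8 h array, 1 for the 35 h array and 0 for the others. The range was picked for its large 14 h differences, which favours the 14 h count. Over all retained probe sets 121 had the gap at 14 h, and the gaps of the other arrays were not counted there. Without this range the 14 h-high set numbered 508, of which 246 were 4-fold above 23 h at 8 h and 147 at 2 h. What the identifier numbers follow is not stated in the files.

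Among the 24, the 32 h array was the highest of the 4 earlier arrays in 21, as it was in 53 of the 63 probe sets at least 64-fold higher at 14 h. The 2 groups overlap, as 19 of the 63 lie in this range. The choice of members for a low 23 h level bears on both counts. At 32 h, 36 of the 63 were 2-fold or more above 35 h and 1 was 2-fold or more below. Of all retained probe sets 1248 (2.61%) were above and 1267 below. The series table places the array filed under 14 h at 32 h and the array filed under 32 h at 14 h. Whether this has to do with the 32 h levels was not tested.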
